A study of Mus musculus with 18 samples.

Results

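Receptor tyrosine kinases and protein tyrosine phosphatases were compared between endothelial and other cells of the growing mouse retina. The members were chosen by a rule on gene names, set with earlier results of these data known. It took a fixed list of receptor kinases and all genes named Ptpr or Ptpn except Ptprb and Ptprc. The kinase list leaves out the vascular, ephrin and insulin-like growth factor families. Pdgfra, Pdgfrb and Csf1r, also receptor kinases, are not in it either, so it does not cover the whole class. A gene counted as measured where a probe set carried its symbol alone. The rule found 57 of 15964 measured genes, 23 kinases and 34 genes with phosphatase names, and each was represented by its brightest probe set of 126 in all. Ptprt, Ptprh and Ptprq were not analysed here. One of the 34, Ptprcap, bears a phosphatase name but encodes a protein that associates with the phosphatase CD45 and is no phosphatase itself.

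The cells came from pooled retinas of FVB/N mice, homozygous for a GFP transgene under the Tie2 promoter, at postnatal day 8. GFP-positive cells, labelled endothelial, were set against GFP-negative cells of the same mice, labelled control. Both populations carried the transgene and went through the same papain digestion and sorting. Amplified RNA was hybridised to Affymetrix MGU74v2 chip types A, B and C, 18 arrays in all, so that each population had 3 arrays of every type. The Tie2 promoter can also be active in some blood-derived cells, and the labels do not say that the 3 arrays came from separate pools, so each p-value reflects the spread among these arrays alone, which may be technical.

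Receptor tyrosine kinases bind a ligand outside the cell, pair up and phosphorylate tyrosines on themselves and on docking proteins, which start the Ras, MAP kinase and PI3 kinase cascades. Protein tyrosine phosphatases remove those phosphates. Receptor-type phosphatases carry adhesion-like outer domains that bind matrix, proteoglycans or neighbouring cells, and the non-receptor enzymes work inside the cell. In the retina the adhesion-type enzymes are best known from axon growth and synapse formation, while in vessels several members oppose receptor signalling at cell junctions.

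The populations separated by their markers. All 10 endothelial markers rose in GFP-positive cells, with summed intensities of 12457 to 15066 on the GFP-positive arrays, against 193 to 240.5 on the GFP-negative arrays. Müller glia markers fell for 6 of 8 genes (783 to 1910 against 5337 to 8780), astrocyte markers for 3 of 7 (311 to 413 against 940 to 1640) and photoreceptor markers for 3 of 7 (329 to 683 against 748 to 1446). Pericyte and mural markers fell for 2 of 10 (350.2 to 394 against 479 to 574). Of 10 microglia and leukocyte markers, Laptm5 and Fcer1g rose (list sums 1440.1 to 1973 against 502 to 540.4) and the other 8 did not pass. The probe sets of Laptm5 and Fcer1g can match several transcripts. The sum of 1973 includes Csf1r at 929.8 on GFP-positive replicate 3, from a probe set that can also match several transcripts. Ptprc, Itgam, Aif1 and Tyrobp, among those that did not pass, averaged 25.2 to 39.0, under the chip A median of 46.4. At such signals a difference may not be detectable. Slc1a3 stands in both glial lists. In the inner retinal neuron list 1 gene rose and 1 fell of 12, and the 3 erythroid genes did not pass although 1 had an unadjusted p under 0.05 (limma). No marker was at 0 on all arrays, but detection calls were not used, so this does not show that each was expressed. GFP-positive replicate 3 stood apart, with rank correlations of 0.911 to 0.929 to the other arrays of its population, where all other pairs of 1 population gave 0.960 to 0.987.

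Upstream sequence of 5 members is shown because these genes are among those with the larger differences described below, 3 lower and 2 higher in GFP-positive cells. RefSeq promoter windows matched 47 of the 57 members by symbol (GRCm38.p6). Each stretch ends at the base before the annotated gene and is written 5′ to 3′ on the gene's strand, with GC boxes (GGGCGG on either strand, a motif bound by Sp1-type factors) in capitals. The stretches are Ddr1 at chr17:35704742-35704849 (minus strand), Ptprs at chr17:56476562-56476711 (minus), Ptprf at chr4:118291406-118291555 (minus), Ptpre at chr7:135537674-135537823 (plus) and Ptprk at chr10:28074670-28074819 (plus).
Ddr1: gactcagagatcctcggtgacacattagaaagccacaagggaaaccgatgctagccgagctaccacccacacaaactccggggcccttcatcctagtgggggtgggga
Ptprs: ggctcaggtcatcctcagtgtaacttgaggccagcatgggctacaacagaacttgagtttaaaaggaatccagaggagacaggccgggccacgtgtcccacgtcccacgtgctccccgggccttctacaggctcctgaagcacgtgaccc
Ptprf: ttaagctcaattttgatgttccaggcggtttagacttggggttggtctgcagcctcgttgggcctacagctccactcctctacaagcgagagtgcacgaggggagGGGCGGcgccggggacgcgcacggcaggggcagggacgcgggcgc
Ptpre: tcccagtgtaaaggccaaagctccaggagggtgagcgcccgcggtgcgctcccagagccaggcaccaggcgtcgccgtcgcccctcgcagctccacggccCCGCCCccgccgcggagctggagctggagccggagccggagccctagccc
Ptprk: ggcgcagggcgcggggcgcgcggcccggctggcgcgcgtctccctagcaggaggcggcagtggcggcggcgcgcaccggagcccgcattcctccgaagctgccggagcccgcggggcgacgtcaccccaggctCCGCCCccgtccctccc
The G and C share was 57.4% for Ddr1, 58.7% for Ptprs, 64.7% for Ptprf, 75.3% for Ptpre and 82.0% for Ptprk. Over the 250 bases before the start of the first promoter of each gene, the GC box stood in 31 of 47 members (66.0%), against 52.4% of 12681 promoters of measured genes. It stood in 4 of 4 members called higher and 9 of 11 called lower. The TATA box (TATAAA on either strand) stood in 2 of 47 members, 0 of 4 called higher and 0 of 11 called lower, against 8.65% of those promoters. The motifs were chosen after the values were known and no test was made, and a match describes letters only.

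At an adjusted p under 0.05, 4 members rose and 13 fell in GFP-positive cells, out of 57. Over all 15964 genes the shares were 9.89% higher and 12.2% lower. Either way, 29.8% of members were called, against 22.0% of all genes. By chip, 18.3%, 20.9% and 9.28% of all probe sets on chips A, B and C were called. At least 2-fold, 2 members rose and 11 fell, against 4.75% of all genes higher and 6.57% lower. The median log2 difference was -0.03 over the members and 0.04 over all genes. In these bulk samples, fewer cells of a type and less RNA per cell cannot be told apart, for a fall as for a rise.

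**Figure D1:**
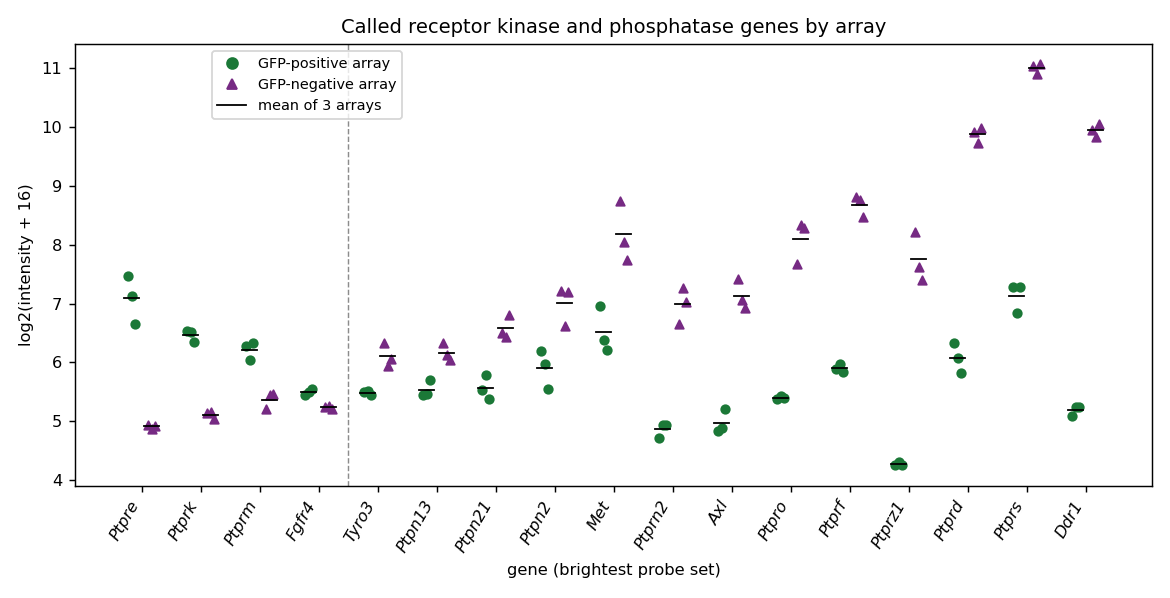
The 17 called members, with log2(intensity + 16) of the brightest probe set on the vertical axis. Circles are the 3 GFP-positive and triangles the 3 GFP-negative arrays, bars their means. The 4 genes left of the dashed line are higher in GFP-positive cells and the 13 to its right lower. The arrays of the populations do not overlap in any of them, as in 41.6% of all genes. These genes were picked by a test on the same arrays, so the separation adds no support.

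Among the 23 kinases 1 rose and 4 fell, 21.7% in all and close to the 22.0% of all genes. Ddr1 had by far the widest gap. It encodes a receptor that is activated by collagen rather than by a soluble ligand. Its gene lies at chr17:35681567-35704741 (GRCm38.p6). Ddr1 had intensities of 18.04, 21.6 and 21.9 on the GFP-positive arrays, against 971.8, 896 and 1044 on the GFP-negative arrays. The arrays within each population lay close together and the populations were far apart. The means were 20.5 ± 2.17 and 970.5 ± 73.8 (SD, n = 3 arrays each, as for all such pairs). The GFP-positive signal was dim and detection calls were not used, so no exact fold is given. On the log2(intensity + 16) scale, where each difference is GFP-positive minus GFP-negative, Ddr1 differed by -4.75 (SE 0.09, adjusted p = 2.68e-05, limma). That scale understates the change of dim probe sets. Ddr2, the collagen receptor better known from mesenchymal cells, did not pass, at 35.7 ± 5.01 against 35.3 ± 1.38 (0.01, SE 0.09).

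The TAM receptors Axl, Mertk and Tyro3 bind Gas6 and protein S and take part in the clearance of dying cells. All 3 read lower on every GFP-positive array than on any GFP-negative array, a pattern shown by 19.4% of all genes, and 2 of the 3 passed the test. Axl had 12.4, 13.4 and 21.1 on the GFP-positive arrays, against 155.6, 117 and 105 on the GFP-negative arrays. GFP-positive replicate 3 was the highest of its population and still far below every GFP-negative array. Axl differed by -2.16 (SE 0.17, adjusted p = 0.000636). Tyro3 fell to 28.8 ± 1.15 in GFP-positive cells, against 53.5 ± 10.1 in GFP-negative cells (-0.62, SE 0.11, adjusted p = 0.0237), but lost the call without GFP-positive replicate 1 or 2 or GFP-negative replicate 3 (adjusted p = 0.0727, 0.0787 and 0.0751). Of the 4 Tyro3 probe sets 2 fell and 2 were not called, and all of them can match several transcripts. Mertk, the member that drives uptake of photoreceptor outer segments in the pigment epithelium, was 41.7 ± 8.20 against 87.1 ± 37.4 and missed the threshold (-0.79, SE 0.25, adjusted p = 0.0703).

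Met, the receptor of hepatocyte growth factor, fell to 77.8 ± 26.7 in GFP-positive cells, against 287 ± 112 in GFP-negative cells (-1.66, SE 0.30, adjusted p = 0.00990). The arrays varied widely within both populations, and the lowest GFP-negative array (198) was still above the highest GFP-positive one (108.3). A second Met probe set on chip A was dim in both populations (25.2 and 21.3) and differed by 0.14. Insr, the insulin receptor, had 623 ± 123 against 496 ± 52.7 without reaching the threshold (0.31, SE 0.16). Its next brightest probe set, at 177 against 102, did pass at 0.72 (adjusted p = 0.0162). Kit, the stem cell factor receptor, was 96.4 ± 16.96 against 132 ± 41.5 (-0.37, SE 0.22), and Mst1r, the receptor of macrophage-stimulating protein, differed by -0.03.

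The FGF receptors bind fibroblast growth factors together with heparan sulfate. Fgfr4 was the kinase that rose, and the difference was small. Its intensities were 27.4, 29.4 and 30.6 on the GFP-positive arrays, against 21.9, 22.2 and 20.9 on the GFP-negative arrays. The arrays were tight within each population and all dim, under the median level of 46.4 on that chip. The difference was 0.26 (SE 0.06, adjusted p = 0.0418), and the call ended when any array except GFP-positive replicate 3 was left out (adjusted p = 0.0687 to 0.155). Fgfr1 was 116 ± 12.98 against 109 ± 7.17 (0.08, SE 0.10). Fgfr2 and Fgfr3 differed by 0.22 and 0.33 with no overlap between the populations, as 22.3% of all genes were higher without overlap, and did not pass.

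By their brightest probe sets the remaining kinases did not pass. Among the ErbB, neurotrophin and GDNF, or Wnt-binding receptors no brightest probe set had an unadjusted p under 0.05 (limma). Some dimmer probe sets did, and a dimmer one of Egfr was called, as given below. Of the ErbB family, which binds EGF and neuregulins, Erbb2 was 100.03 ± 16.1 against 108 ± 5.52 (-0.10, SE 0.11). Egfr, Erbb3 and Erbb4 averaged 30.0 to 33.3 over all arrays and differed by 0.01 to 0.06. Ntrk2, the BDNF receptor, was 58.1 ± 8.39 against 61.0 ± 7.45 (-0.06, SE 0.12), Ntrk3 differed by 0.22 and Ret by -0.06. Ryk, a Wnt-binding receptor with an inactive kinase domain, was 83.8 ± 33.3 against 102 ± 7.70 (-0.29, SE 0.23), and without GFP-positive replicate 1, its highest array in that population, it passed at -0.55 (adjusted p = 0.0440). Ror1 and Ror2 differed by -0.03 and 0.04. For several of these genes all arrays lay under the chip median, and at such signals a difference may not be detectable.

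**Figure D2:**
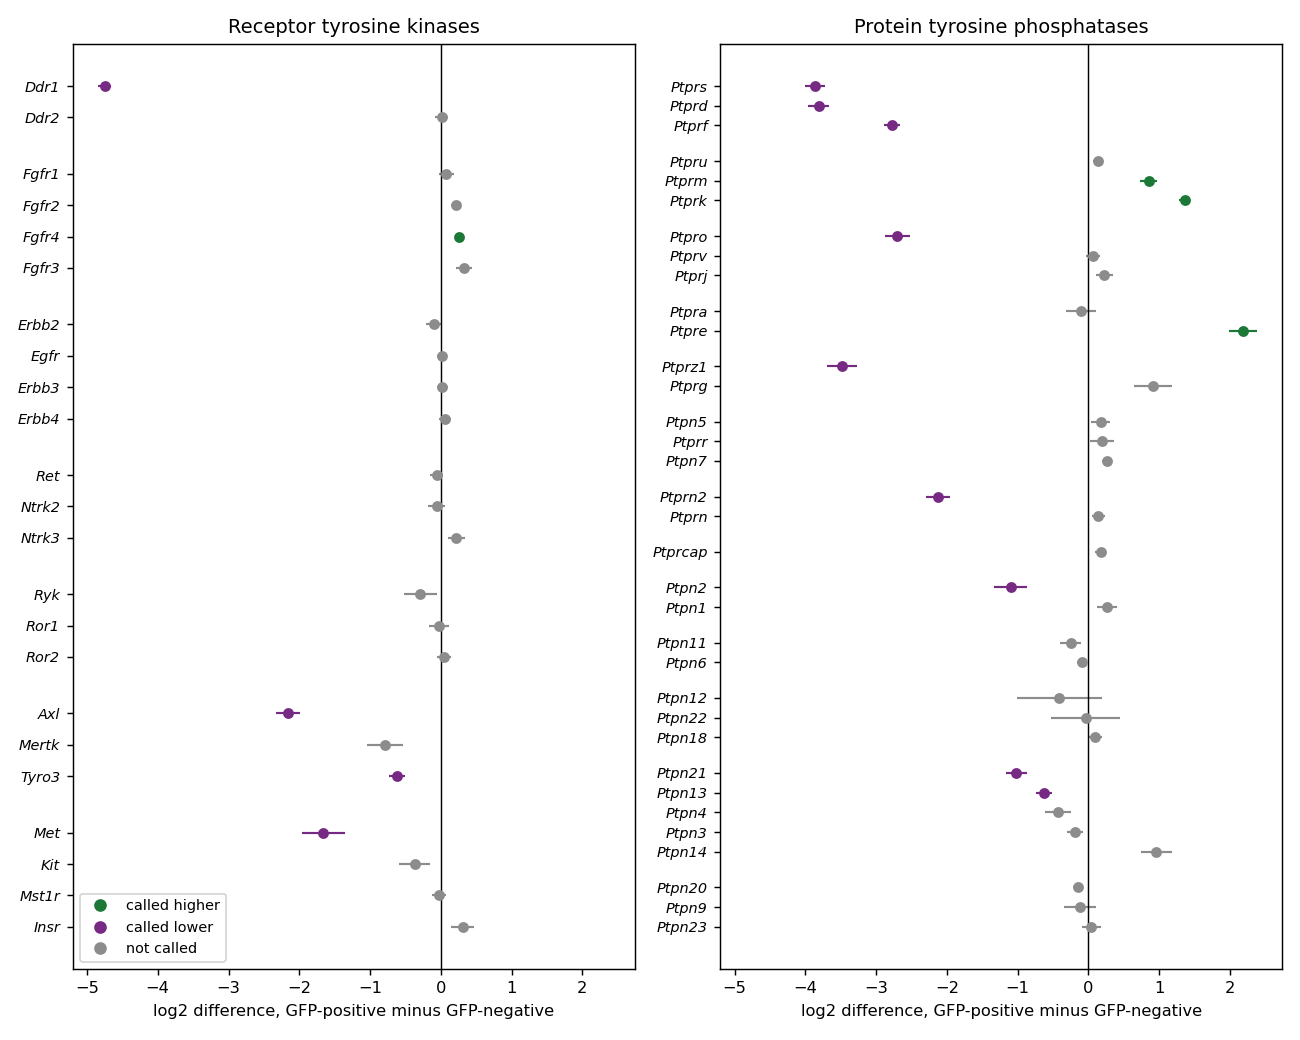
Log2 difference of all 57 members, GFP-positive minus GFP-negative (horizontal axis), with 1 SE of the fit to each side, kinases on the left and phosphatase-named genes on the right, grouped by family. Ddr1 at -4.75 and the 3 LAR-type phosphatases at -3.87 to -2.78 lie far to the left, while Ptpre at 2.18 lies farthest to the right.

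Of the 34 phosphatase-named genes 3 rose and 9 fell, 35.3% in all. The 18 receptor-type and related genes held 3 rises and 6 falls (50.0%), with Ptpn5 and Ptpn7, non-receptor by name, counted here beside Ptprr. The 15 other Ptpn genes held 3 falls (20.0%), near the 22.0% of all genes. The difference between these shares was not tested. The 3 phosphatases that rose were all receptor-type enzymes.

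The LAR-type phosphatases Ptprs, Ptprd and Ptprf have immunoglobulin and fibronectin domains, bind proteoglycans and synaptic partners, and are textbook regulators of axon growth. All 3 fell. Ptprs had 139, 98.1 and 140 on the GFP-positive arrays, against 2079, 1908 and 2136 on the GFP-negative arrays. Every GFP-negative array was far above every GFP-positive one. Ptprs differed by -3.87 (SE 0.14, adjusted p = 4.67e-05), a ratio of 16.2 between the means. Ptprd had 64.3, 51.2 and 40.2 on the GFP-positive arrays, against 951.9, 837 and 999 on the GFP-negative arrays (-3.81, SE 0.15, adjusted p = 5.71e-05). Of its 5 probe sets on the 3 chips, 4 fell by 3.17 to 3.81 on the log2 scale, and the dimmest, at 25.4 against 27.8, did not pass. Ptprf had 43.3, 46.7 and 41.2 on the GFP-positive arrays, against 431, 417 and 337 on the GFP-negative arrays (-2.78, SE 0.11, adjusted p = 5.83e-05). In all 3 genes the populations were far apart on every array.

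Ptprz1 carries a carbonic anhydrase-like domain and is a glial receptor of contactin, pleiotrophin and midkine. Its intensities were 2.98, 3.89 and 3.07 on the GFP-positive arrays, against 282, 181 and 154 on the GFP-negative arrays. The GFP-positive values are close to 0, the bottom of the scale. Ptprz1 differed by -3.48 (SE 0.21, adjusted p = 0.000367), and 4 of its 6 probe sets fell. Ptprg, its relative, lay the other way at 698 ± 193 against 366 ± 116, with every GFP-positive array above every GFP-negative one. Its difference of 0.91 (SE 0.27) missed the threshold (adjusted p = 0.0584). With GFP-positive replicate 3 left out it was called (0.99, adjusted p = 0.0448). A second Ptprg probe set, on chip C, differed by 0.53 and did not pass.

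Ptpro, known from kidney podocytes and from growth cones, had 25.6, 27.2 and 26.0 on the GFP-positive arrays, against 189, 309 and 297 on the GFP-negative arrays (-2.70, SE 0.18, adjusted p = 0.000423). Ptprn2, a protein of dense-core secretory vesicles, had 10.2, 14.6 and 14.5 on the GFP-positive arrays, against 85.1, 138 and 115 on the GFP-negative arrays (-2.13, SE 0.17, adjusted p = 0.000302). In both genes all GFP-positive arrays were dim and clustered closely, and the GFP-negative arrays spread more. A chip A probe set of Ptprn2 was dim in both populations (19.0 and 19.8) and did not pass. The vesicle protein Ptprn did not pass either, at 87.8 ± 5.14 against 78.6 ± 8.19 (0.14, SE 0.09).

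The falls of Ddr1, Ptprz1, Ptprs and the other genes above went together with lower Müller glia, astrocyte, photoreceptor and pericyte marker sums in GFP-positive cells. Not every list was lower. Inner retinal neuron sums overlapped, at 653 to 4354 against 1253 to 1807, with the 4354 on GFP-positive replicate 3. Leukocyte and erythroid sums were higher. The part of any cell type in the falls was not tested.

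Ptpre rose most. It encodes a phosphatase with a short outer domain, made also in a cytosolic form. Ptpre had 161.7, 124 and 85.0 on the GFP-positive arrays, against 14.7, 13.3 and 14.3 on the GFP-negative arrays. The GFP-positive arrays spread widely, yet the lowest of them was far above all GFP-negative arrays, which lay close together. Ptpre averaged 123.6 ± 38.3 against 14.1 ± 0.716 (log2 difference 2.18, SE 0.20, adjusted p = 0.00118). Its relative Ptpra was 58.0 ± 15.9 against 63.1 ± 14.3, short of the threshold (-0.11, SE 0.21). The leukocyte markers Laptm5 and Fcer1g were also higher in GFP-positive cells, while Ptprc was 29.3, 34.3 and 56.7 on the GFP-positive arrays, against 34.5, 41.8 and 37.6 on the GFP-negative arrays. Detection calls were not used, so these signals do not show which leukocyte markers were expressed. The part of leukocytes in the rise of Ptpre was not tested.

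Ptprk and Ptprm bind to their own kind on neighbouring cells through MAM and immunoglobulin domains and sit at cell contacts. Ptprk had 76.6, 75.7 and 65.3 on the GFP-positive arrays, against 19.0, 19.6 and 16.9 on the GFP-negative arrays of chip C. The populations were tight and well apart. Ptprk differed by 1.36 (SE 0.08, adjusted p = 0.000368), whereas the next brightest probe set, on chip A, was 45.6 against 31.0 and was not called (0.38, adjusted p = 0.0965). Ptprm had 61.7, 49.4 and 64.5 on the GFP-positive arrays, against 20.9, 27.5 and 27.8 on the GFP-negative arrays (0.85, SE 0.12, adjusted p = 0.00505). No Ptprm array of the GFP-negative population reached the lowest GFP-positive one. A second Ptprm probe set on that chip was dim in both populations (16.8 and 15.2) and was not called (0.07, adjusted p = 0.515). Ptpru, their relative, was 107 ± 5.93 against 95.9 ± 4.59, short of the threshold (0.13, SE 0.07).

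Other members counted with the receptor type, and Ptprcap, did not pass. Ptprj, which opposes growth factor signalling at endothelial junctions, was 122 ± 21.2 against 102 ± 6.12 (0.22, SE 0.12), and Ptprv differed by 0.06. The group that binds MAP kinases, Ptprr, Ptpn5 and Ptpn7, differed by 0.17 to 0.26, with Ptprr at 93.8 ± 24.4 against 78.8 ± 6.25. Of these 3 genes 1 had an unadjusted p under 0.05 (limma). The CD45-associated gene Ptprcap was 87.0 ± 1.96 against 75.6 ± 6.63 (0.17, SE 0.08).

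The non-receptor enzymes work inside the cell. Ptpn2, which acts on JAK kinases and on receptors, fell to 44.9 ± 13.3 in GFP-positive cells, against 115 ± 28.7 in GFP-negative cells (-1.10, SE 0.23, adjusted p = 0.0236). That call ended without GFP-positive replicate 2 or GFP-negative replicate 1 or 3 (adjusted p = 0.0650, 0.0918 and 0.0947). Ptpn1, the enzyme PTP1B that acts on the insulin receptor and is the closest relative of Ptpn2, had 662 ± 32.9 against 555 ± 98.0 and was not called (0.26, SE 0.14), although its arrays did not overlap.

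The FERM-domain enzymes link the membrane to the cytoskeleton. Ptpn21 fell to 31.4 ± 6.98 in GFP-positive cells, against 80.3 ± 13.5 in GFP-negative cells (-1.02, SE 0.15, adjusted p = 0.00615), and Ptpn13 to 30.5 ± 4.74 against 56.0 ± 7.27 (-0.63, SE 0.11, adjusted p = 0.0135). The Ptpn13 call ended without GFP-positive replicate 2 (adjusted p = 0.0505). Ptpn14, a regulator of YAP in vessels and lymphatics, lay the other way at 383, 431 and 233.7 on the GFP-positive arrays, against 177, 174 and 150.03 on the GFP-negative arrays. Replicate 3 was the low array of the GFP-positive population. The difference of 0.96 just missed the threshold (SE 0.22, adjusted p = 0.0529) and was 1.21 without that array (adjusted p = 0.000762). Another Ptpn14 probe set, on chip B, differed by -0.16 and did not pass, so the probe sets of this gene disagree. Ptpn3 and Ptpn4, dim in both populations, differed by -0.19 and -0.43 and were not called.

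Ptpn11, the SH2-domain enzyme SHP2 that carries signals from most receptor kinases to Ras, had 720.4 ± 123 against 855 ± 67.4 and was not called (-0.25, SE 0.15). A second probe set, at 563 against 809, passed at -0.51 (adjusted p = 0.0143). Ptpn6, its relative of blood cells, differed by -0.09 at 33.7 against 36.9. Ptpn9 was 156 ± 46.3 against 166 ± 16.2 (-0.12, SE 0.22), and Ptpn23 and Ptpn20 differed by 0.04 and -0.15. In the SH2 pair and among Ptpn9, Ptpn20 and Ptpn23 no brightest probe set had an unadjusted p under 0.05 (limma).

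Of the PEST-type enzymes, Ptpn12 and Ptpn22 were not called with all arrays but were with GFP-positive replicate 3 left out. Ptpn12, which acts on focal adhesion proteins, had 169.5, 173 and 809 on the GFP-positive arrays, against 330.4, 488 and 369.6 on the GFP-negative arrays. Ptpn22, known from lymphocytes, had 27.4, 29.2 and 135 on the GFP-positive arrays, against 47.3, 55.7 and 55.4 on the GFP-negative arrays. In both genes GFP-positive replicate 3 was above all GFP-negative arrays and the other GFP-positive arrays below them. Over all arrays the differences were -0.41 (SE 0.60) and -0.04 (SE 0.49). Without GFP-positive replicate 3 they were -1.12 and -0.63 (adjusted p = 0.00729 and 0.00523). The third enzyme of this type, Ptpn18, differed by 0.09 with all arrays and 0.17 without that array, and was called in neither.

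Leaving out GFP-positive replicate 3 gave 7 members higher and 15 lower, when 15.0% of all genes were higher and 17.4% lower. The 17 members called with all arrays were called without it as well. The 5 additions were Ptpn14, Ptprg and Ptpn7 (0.29, adjusted p = 0.0350) as higher, and Ptpn12 and Ptpn22 as lower.

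**Figure D3:**
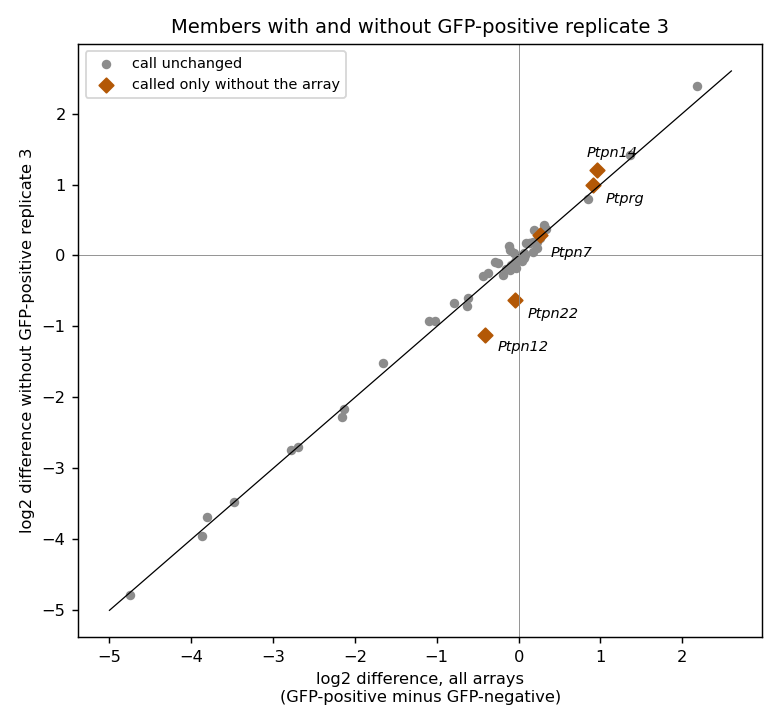
Log2 difference (GFP-positive minus GFP-negative) of the 57 members with all arrays (horizontal axis) and without GFP-positive replicate 3 (vertical axis), 1 point per gene, with a line of equality. The 5 labelled diamonds pass the threshold without that array but not with all arrays. Ptpn12, at -0.41 and -1.12, lies farthest from the line among them.

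Several genes rested on 1 of their probe sets. Of the 34 members with more than 1 probe set, 13 had some called and some not, 21 had no called probe set, and in 0 were probe sets called in opposite directions. In all, 5 probe sets of members rose and 24 fell of 126, against 16.3% of all 36701 probe sets called in either direction. Egfr and Fgfr2, whose brightest probe sets did not pass, each had a dimmer one that fell (-0.48, adjusted p = 0.0340, and -0.54, adjusted p = 0.0462).

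**Figure D4:**
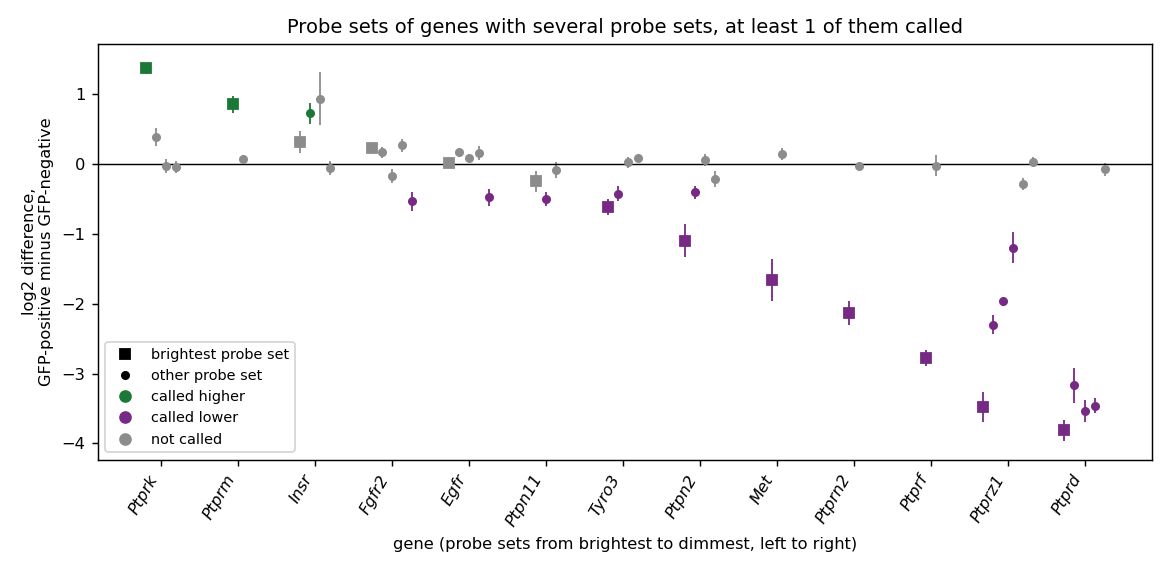
Log2 difference (GFP-positive minus GFP-negative, with 1 SE to each side) of every probe set of the 13 members with several probe sets and at least 1 of them called, in order of brightness within each gene. Squares mark the brightest probe set, and green, purple and grey mark called higher, called lower and not called. Ptprd has 4 probe sets between -3.81 and -3.17 and 1 near 0, and Met, Ptprn2 and Ptprf have 1 low and 1 near 0.

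Ligands of these receptors were counted over a list of 44, of which 36 were measured. In GFP-positive cells 4 rose and 6 fell, with a median difference of -0.02. That is 27.8% called, against 22.0% of all genes, and the gap was not tested. Kitl, the stem cell factor that binds Kit, rose to 423 ± 200 in GFP-positive cells, against 36.3 ± 22.6 in GFP-negative cells (3.06, SE 0.44, adjusted p = 0.00623). Hbegf, a ligand of the EGF receptor, rose to 516 ± 171 against 76.7 ± 31.7 (2.53, SE 0.32, adjusted p = 0.00222), though its receptor Egfr did not pass. In both genes every GFP-positive array was above every GFP-negative one, as in 22.3% of all genes.

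Tgfa and Nrg4, other ErbB ligands, rose by 0.60 and 0.51 on the log2 scale, and both calls ended when single arrays were left out (adjusted p up to 0.133 and 0.115). On the falling side, Cntn1, the neuronal adhesion molecule that binds Ptprz1, was 47.4 ± 16.2 against 1552 ± 102 (-4.66, SE 0.20, adjusted p = 3.49e-05). That Cntn1 probe set can match several transcripts, and with such probe sets omitted another one differed by -0.09. Mdk, which encodes midkine, another ligand of Ptprz1, was 36.3 ± 3.65 against 182.4 ± 35.3 (-1.91). Ptn, which encodes pleiotrophin, was 5.91 ± 4.36 against 16.2 ± 3.71 and was not called (-0.57, SE 0.16, adjusted p = 0.0648). Mdk and Ptn were named after their values were seen. Fgf9 was 33.0 ± 7.55 against 539 ± 126 (-3.49) and Bdnf, the ligand of Ntrk2, 16.5 ± 4.16 against 172 ± 65.3 (-2.47). Wnt5a, a ligand of Ror and Ryk, was 27.7 ± 1.40 against 180.5 ± 15.0 (-2.17), but a chip A probe set of the gene differed by 0.02. Fgf8 did not pass at 160.0, 163 and 628 on the GFP-positive arrays, against 402, 474 and 347.5 on the GFP-negative arrays (-0.63), and was called with GFP-positive replicate 3 left out (-1.25, adjusted p = 0.00194).

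Of 31 measured signal carriers behind the receptors 1 rose and 5 fell (19.4%, against 22.0% of all genes). Sos1, the exchange factor that switches on Ras, rose to 448 ± 36.4 in GFP-positive cells, against 232 ± 44.9 in GFP-negative cells (0.91, SE 0.15, adjusted p = 0.00593). Irs1, the insulin receptor substrate, fell to 11.9 ± 0.988 against 255 ± 31.3 (-3.27, SE 0.11, adjusted p = 1.75e-05), while Insr itself did not pass. A dim chip A probe set of Irs1 differed by 0.07. Smaller falls were those of the docking protein Gab1 (-1.18), the PI3 kinase subunit Pik3ca (-0.97) and the adaptor Crkl (-0.76), whose calls ended when single arrays were left out (highest adjusted p 0.111, 0.111 and 0.0721).

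Pik3r1, the regulatory subunit of PI3 kinase, had 146, 121 and 7150 on the GFP-positive arrays, against 1519, 1704 and 718 on the GFP-negative arrays. Replicate 3 of the GFP-positive population was again far above everything else. Pik3r1 did not pass (-1.20, SE 1.48), and was -3.06 without that array (adjusted p = 0.00077).

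Feedback inhibitors dampen the same cascades. Of 23 measured genes 1 rose and 3 fell (17.4%, against 22.0% of all genes). Spry2, a Sprouty protein induced by FGF signalling, fell to 24.6 ± 5.55 in GFP-positive cells, against 122 ± 33.6 in GFP-negative cells (-1.75, SE 0.19, adjusted p = 0.00126), and Spry3 to 38.8 ± 1.01 against 85.0 ± 9.98 (-0.88, adjusted p = 0.00157). The MAP kinase phosphatase Dusp5 was lower (-0.85) and Sh3kbp1, an adaptor of receptor internalisation, higher (0.87), and both calls ended when single arrays were left out (highest adjusted p 0.111 and 0.0755). Il17rd, a membrane inhibitor of FGF signalling, was 615 ± 290.5 against 344 ± 61.4 and was not called (0.72), but was with GFP-positive replicate 3 left out (1.05, adjusted p = 0.0248). Over signal carriers and feedback inhibitors together, 2 rose and 8 fell. Without GFP-positive replicate 3 the numbers were 6 and 11, when 15.0% of all genes were higher and 17.4% lower, so nothing about these lists is read from the gain.

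**Figure D5:**
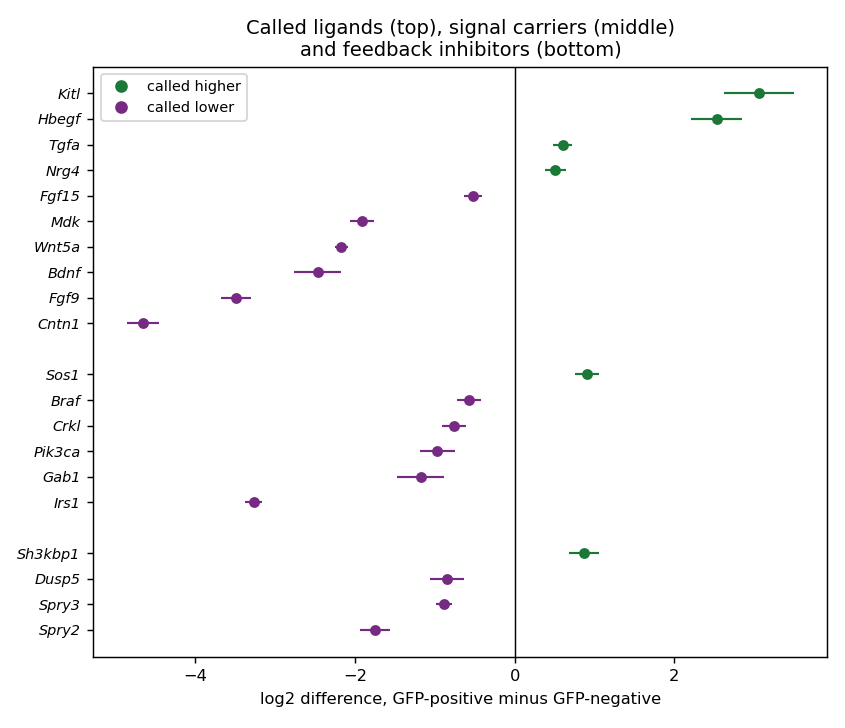
Log2 difference (GFP-positive minus GFP-negative, with 1 SE to each side) of the called ligands, signal carriers and feedback inhibitors. Kitl at 3.06 and Hbegf at 2.53 lie to the right of 0, and Cntn1 at -4.66, Fgf9 at -3.49 and Irs1 at -3.27 lie farthest to the left.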

How the data were processed

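Per the labels' protocols, amplified and biotin-labelled RNA of sorted cells was put on MGU74v2 chips. Each deposited value is a linear intensity of 1 probe set. The authors' probe summary, background correction and scaling are not given in the sources used here. Any of them could change a difference. Array medians lay within 43.3 to 44.5, 40.7 to 44.6 and 32.5 to 34.4 on chips A, B and C, so the intensities were kept as scaled. Detection calls were not used here. Names came from the platform annotation (10833, 10581 and 7717 had 1 symbol, 396, 178 and 150 several, 1193, 1652 and 4001 none), and 0 symbols changed against RefSeq.

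Each chip was fitted alone on log2(intensity + 16) using limma 3.58.1 under R 4.3.3 (functions lmFit and eBayes; two-sided tests), with Benjamini-Hochberg adjustment over all probe sets of the chip and a threshold of 0.05. Over all probe sets the median log2 difference was 0.015 (chip A), 0.089 (chip B) and 0.046 (chip C). A gene was represented by its brightest probe set over all arrays. The fit was tested on simulated data.

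The members and lists were chosen with earlier results of these data known. Named were all called members, the brightest member not called in each family, and in each of the other lists up to 4 called genes in each direction and the brightest not called. The remaining members are given by value so that each is accounted for. Alternatives were other normalizations, pseudocounts of 1 and 64, filters, limma variants, array weights, the replicate number as a block, other call thresholds, other choices of probe set and each array left out. The number of arrays limits the precision. Figures were drawn with matplotlib 3.10.9.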

Additional observations from a re-analysis of the deposited data

How the results depend on the processing

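Of the 17 called members, 9 kept their call and direction under every alternative run, up to 19 each (Ddr1, Axl, Ptprs, Ptprd, Ptprf, Ptprz1, Ptpro, Ptpre and Ptpn21). Another 7 lost the call under at least 1, and Met lost its call with a change of sign. Met was 0.14 and not called (adjusted p = 0.372, limma) when the first chip that holds a gene was used. Ptprk and Ptprn2 also lost their calls there (0.38 and -0.03), since another, dimmer probe set then stands for the gene. Irs1 (0.07), Tgfa (-0.05) and Wnt5a (0.02) also changed sign under that choice, each to a small difference. When probe sets that can match several transcripts were omitted, Wnt5a changed sign (0.02) and Cntn1 lost its call (-0.09).

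Correlations of deviations between same-numbered arrays lay between -0.368 and 0.292, and 3 of 9 were above 0. These 9 are 3 number pairs read on 3 chips, and deviations from a mean of 3 arrays depend on each other. The check therefore cannot tell whether the replicate numbers pair the arrays. With the number as a replicate block, 0 kinases rose and 3 fell, 4 phosphatase genes rose and 7 fell, and all genes gave 1181 higher and 1594 lower calls. The block ended the calls of Fgfr4, Tyro3, Ptpn13 and Ptpn2 (adjusted p = 0.139, 0.0723, 0.0586 and 0.0523) and added Ptprg (0.0201).

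Array weights gave 2 kinases, 6 phosphatase genes, 8 ligands and 13 signal carrier and feedback genes higher, and 3154 genes higher and 2984 lower of all genes. An adjusted p under 0.01 left 0 kinases higher, 2 ligands higher, 1 signal carrier and feedback gene higher and 3 lower, and 790 genes higher and 1070 lower in all. At least 2-fold left 0 kinases, 2 ligands and 0 signal carrier and feedback genes higher, 3 of the last lower, and 758 genes higher and 1049 lower in all. Quantile normalization gave 4 signal carrier and feedback genes higher, a pseudocount of 1 gave 5 phosphatase genes higher, brighter probe sets only gave 0 kinases higher, omitted cross-matching probe sets gave 2 kinases higher, and the first chip gave 1 signal carrier and feedback gene higher. The cause of these moves, other than the stricter rules themselves, was not tested.

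With each array left out in turn, kinases higher ranged from 0 to 1 and lower from 3 to 4, phosphatase genes from 3 to 6 and from 7 to 11, ligands from 2 to 7 and from 5 to 9, signal carrier and feedback genes from 1 to 6 and from 3 to 11, and all genes from 954 to 2397 and from 1324 to 2773. The highest counts over all genes came without GFP-positive replicate 3. Dim probe sets limit what could be seen, since 18 of 57 members were under their chip's median.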

Other observations

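GFP-positive replicate 3 read other genes of these cascades and of other cell types far from the arrays of its own population. Csf1r, the microglial receptor tyrosine kinase, was 37.3, 41.2 and 929.8 on the GFP-positive arrays, against 94.3, 112 and 108.5 on the GFP-negative arrays. The bipolar cell gene Pcp2 was 172, 239.6 and 3689 against 783, 1288 and 897, and Glul, the glutamine synthetase of Müller glia, 136, 156 and 986 against 117, 142 and 131. Ptprj had 42.6, 40.5 and 167 against 46.0, 61.8 and 55.5 on a chip A probe set, while its brightest probe set, on chip C, read 113.5, 107 and 147 against 99.96, 97.3 and 109. The probe sets of Csf1r, Pcp2 and Glul can match several transcripts. They were taken as the brightest over all arrays, with GFP-positive replicate 3 included. These values therefore do not show that transcripts of those cell types were present on that array. These genes were picked after their values were seen, and no cause was tested.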
